A study of Canis lupus familiaris with 33 samples.

Results

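The 9 genes CLDN3, CLDN4, CLDN7, OCLN, TJP1, MARVELD2, CDH1, CDH3 and EPCAM, which encode proteins of epithelial cell contacts, were taken by symbol from the 25096 genes of a table of canine bladder RNA sequencing values, and all 9 were found. They were followed across 29 tumors of naturally occurring invasive urothelial carcinoma (iUC) and 4 samples of normal bladder. The tumors were high-grade, treatment-naive and taken by cystoscopic biopsy, 1 per dog. The normals, designated A to D, came from the mucosa or urothelial layer dissected from the bladders of dogs euthanized for other reasons. The labels give no treatment or engineered allele for either group, and ages were not used here.

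Epithelial cells are held together by tight junctions, which seal the space between neighbors, and by adherens junctions, which couple their actin belts. Claudins form the tight junction strands, occludin and tricellulin run within them, and the scaffold ZO-1 ties them to actin. Classical cadherins bind cell to cell across adherens junctions, and in bladder these contacts form part of the barrier to urine. Loss of claudins and E-cadherin, often with a gain of the repressors ZEB1 and ZEB2, is a hallmark of epithelial-mesenchymal transition, and low claudin expression defines the claudin-low class of breast and bladder cancers.

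The deposited TMM-normalized values are on a log2 scale with each gene set to a median of 0 across the 33 samples, so a value of 1 is 2-fold above the median sample. The values compare samples for 1 gene and carry no order of abundance between genes. The total count of a sample was unknown, so the counting error behind a value could not be given. A gene was called when limma with Benjamini-Hochberg adjustment over 24471 tested genes gave an adjusted p of at most 0.05 and the groups differed by at least 2-fold.

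The libraries of the 2 groups stood apart in more than the junction genes. Olfactory receptor genes are silent in most tissues. Of the 456 whose lowest listed value was shared between samples, a set picked from these same values, 99.3% to 99.8% lay above that value in the normals and 3.95% to 91.7% in the tumors. The 5 smooth muscle markers analysed averaged 4.74 to 6.75 in the normals and -1.23 to 3.58 in the tumors, and the 4 Schwann cell markers 4.80 to 5.49 and -1.65 to 2.50, with no overlap in either list. The 8 fibroblast markers averaged 2.23 to 2.84 in the normals and -2.19 to 2.20 in the tumors. Of these 8, 7 were called lower in tumors, 6 without normal D and 8 in the DESeq-normalized table. Over all genes tested, 45.8% were called lower (43.3% and 49.1% in those settings) and 10.7% higher. The share of all genes with every tumor below every normal was not counted. The list means of endothelial and leukocyte markers overlapped between groups, at -0.20 to 0.43 and -0.30 to 0.21 in the normals and -1.74 to 1.99 and -1.59 to 2.68 in the tumors. The 7 urothelial markers averaged -1.11 to 0.20 in the normals, which the labels call urothelial cells, and -1.54 to 1.01 in the tumors. That mean joins markers called in opposite directions, UPK3A (1.85), UPK3B (1.16) and KRT19 (1.09) higher and KRT20 (-3.75) lower in tumors on the log2 scale. The higher calls went from 3 to 1, UPK3A, without normal D and in the DESeq-normalized table, and KRT20 was at its lowest listed value in 9 tumors. The leukocyte list held the macrophage marker CD68 (1.95, every tumor above every normal) and LCP1 (1.90) called higher, and MS4A1 (-2.96, a call lost without any 1 normal) and ITGAM (-1.47) called lower. The largest falls of the stromal lists were ACTG2 (-7.05) and TPM2 (-6.28) of smooth muscle, DCN (-3.87) and VIM (-3.11) of fibroblasts, and CDH19 (-7.46) and NCAM1 (-6.51) of Schwann cells. Over all genes tested the median log2 difference, tumor minus normal, was -0.84, but over the 18418 genes above their lowest value in at least 17 samples it was -0.01. These features went with the group in every comparison of tumor and normal below, and their part in the results was not tested. Olfactory receptor detection and group cannot be told apart.

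Of the 9 junction genes, 7 were called higher in tumors, against 10.7% of all genes tested (56.5% were called in either direction), and CDH3 and TJP1 were not called. The 7 were CLDN3, CLDN4, CLDN7, OCLN, MARVELD2, CDH1 and EPCAM. In 6 of the 9, every tumor lay above every normal, as in 7.63% of all genes tested, and CLDN4 missed that by 1 tumor. The median log2 difference over the 9 genes was 1.81. In bulk tissue, a change in the number of epithelial cells and a change in the RNA of each cell cannot be told apart.

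**Figure D1:**
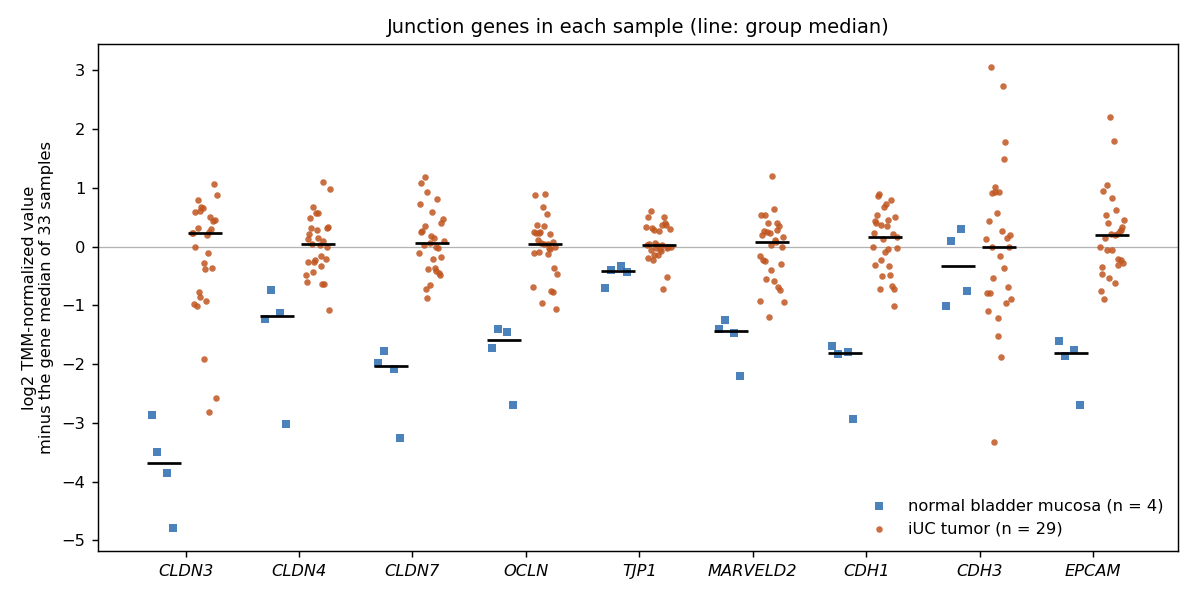
Median-centred log2 TMM-normalized values of the 9 junction genes in 4 normals (squares) and 29 tumors (circles), with a line at each group median. The tumors of CLDN3, CLDN7, OCLN, MARVELD2, CDH1 and EPCAM all lie above the normals, whereas the tumors of CDH3 run from -3.33 to 3.06 on both sides of its normals.

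Among the claudins, CLDN3 (ENSCAFG00000012532), a sealing claudin of tight junctions, rose the most. CLDN3 values in normals A to D were -2.87, -3.86, -3.49 and -4.79. CLDN3 ran in the tumors from -2.81 through a median of 0.23 to 1.07. The groups did not overlap, but the lowest tumor, tumor Za, fell just above normal A, and tumors 20 and 16 were also far below the rest at -2.58 and -1.92. CLDN3 was 12.0-fold higher in tumors (log2 difference 3.59 ± 0.51 SE, limma with Benjamini-Hochberg adjusted p = 1.87e-07), a larger rise than in 99.9% of genes tested.

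CLDN4 (ENSCAFG00000012523), a claudin that limits paracellular sodium passage and serves, with CLDN3, as a receptor for a clostridial enterotoxin, had values of -1.23, -1.13, -0.75 and -3.01 in normals A to D. CLDN4 ran in the tumors from -1.08 through a median of 0.05 to 1.11. One tumor, tumor 20, lay within the range of the normals, and the other 28 lay above it. The rise of CLDN4 was 2.96-fold (log2 difference 1.56 ± 0.30 SE, limma with Benjamini-Hochberg adjusted p = 3.01e-05). Normal D was the farthest from the tumors, and without it the log2 difference of CLDN4 was 1.07 and was still called.

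CLDN7 (ENSCAFG00000016124), a claudin found also along the basolateral membrane, where it binds EpCAM, was at -1.98, -2.08, -1.77 and -3.26 in normals A to D. CLDN7 ran in the tumors from -0.87 through a median of 0.06 to 1.19, clear of every normal. It was 5.17-fold higher in tumors (log2 difference 2.37 ± 0.29 SE, limma with Benjamini-Hochberg adjusted p = 1.14e-08).

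Within a sample, the claudins did not all move by the same amount. CLDN3 minus CLDN4 averaged -2.22 ± 0.60 (SD) over the 4 normals and -0.20 ± 1.11 (SD) over the 29 tumors, a gap of 2.02 (exact permutation test over 40920 regroupings, two-sided, adjusted p = 0.00907 over 14 differences). The difference lay above every normal in 27 of 29 tumors. CLDN3 minus CLDN7 differed between groups by 1.22 (exact permutation adjusted p = 0.0562), and CLDN4 minus CLDN7 by -0.80 (exact permutation adjusted p = 0.0823), both short of the threshold. CLDN3 and CLDN4, which lie next to each other with no protein-coding gene between them, therefore differed in the size of their rise.

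OCLN (ENSCAFG00000007805), encoding occludin, was at -1.73, -1.46, -1.40 and -2.70 in normals A to D and ran in tumors from -1.06 through 0.04 to 0.89. MARVELD2 (ENSCAFG00000007797), encoding tricellulin, the protein of corners where cells meet, was at -1.40, -1.47, -1.26 and -2.21 in the same normals and ran in tumors from -1.20 through 0.08 to 1.20. In both genes the groups did not overlap, although the lowest MARVELD2 tumor lay close to normal C. OCLN rose 3.52-fold (log2 difference 1.81 ± 0.27 SE, limma with Benjamini-Hochberg adjusted p = 5.25e-07). MARVELD2 rose 2.91-fold (log2 difference 1.54 ± 0.29 SE, limma with Benjamini-Hochberg adjusted p = 1.63e-05). The difference OCLN minus MARVELD2 was -0.24 in normals and 0.04 in tumors, a gap of 0.27 that did not pass (exact permutation adjusted p = 0.213).

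TJP1 (ENSCAFG00000010407), encoding the scaffold ZO-1 that joins the strand proteins to actin, was the most even member. TJP1 values in normals A to D were -0.70, -0.32, -0.39 and -0.43, and those of the tumors ran from -0.71 through 0.03 to 0.61. The groups overlapped, with 27 of 29 tumors above every normal and 1 below every normal. The log2 difference of TJP1 was 0.54 ± 0.16 SE, or 1.46-fold, which had an adjusted p of 0.00412 in limma with Benjamini-Hochberg adjustment and fell short of 2-fold. Without the 2-fold requirement TJP1 would be called higher, as were 22.9% of all genes (71% in either direction). It would not be called in the DESeq-normalized table, where its log2 difference was 0.24 (limma with Benjamini-Hochberg adjusted p = 0.182).

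CDH1 (ENSCAFG00000020305), encoding E-cadherin, the main cadherin of adherens junctions, was at -1.69, -1.79, -1.83 and -2.93 in normals A to D. CDH1 ran in the tumors from -1.01 through a median of 0.16 to 0.90. Every tumor lay above every normal, and CDH1 was 4.45-fold higher in tumors (log2 difference 2.15 ± 0.28 SE, limma with Benjamini-Hochberg adjusted p = 3.62e-08). EPCAM (ENSCAFG00000002653), an epithelial surface glycoprotein that associates with CLDN7, was at -1.61, -1.75, -1.85 and -2.70 in normals A to D. EPCAM ran in the tumors from -0.90 through 0.20 to 2.21, again without overlap, and rose 4.52-fold (log2 difference 2.18 ± 0.36 SE, limma with Benjamini-Hochberg adjusted p = 2.31e-06).

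CDH3 (ENSCAFG00000020303), encoding P-cadherin, a cadherin of basal epithelial layers, had another distribution. CDH3 values in normals A to D were -1.01, 0.30, 0.09 and -0.76, inside a tumor range from -3.33 through 0.00 to 3.06. Of the tumors, 10 lay above every normal and 5 below every normal, with the rest among them. CDH3 was not called (log2 difference 0.36 ± 0.66 SE, 95% interval -0.99 to 1.71, limma with Benjamini-Hochberg adjusted p = 0.634), and the interval holds changes of 2-fold upward. Its SD over tumors was 1.34, larger than that of 89.3% of genes tested, against 0.52 for CDH1 and 0.30 for TJP1.

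CDH3 minus CDH1 averaged 1.72 ± 0.70 (SD) over the 4 normals and -0.08 ± 1.39 (SD) over the 29 tumors, a gap of -1.79 (exact permutation adjusted p = 0.0479). The balance of P-cadherin to E-cadherin was below every normal in 23 tumors and above every normal in 3. The call was lost when normal B, C or D was left out (exact permutation adjusted p = 0.121, 0.126 and 0.097).

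**Figure D2:**
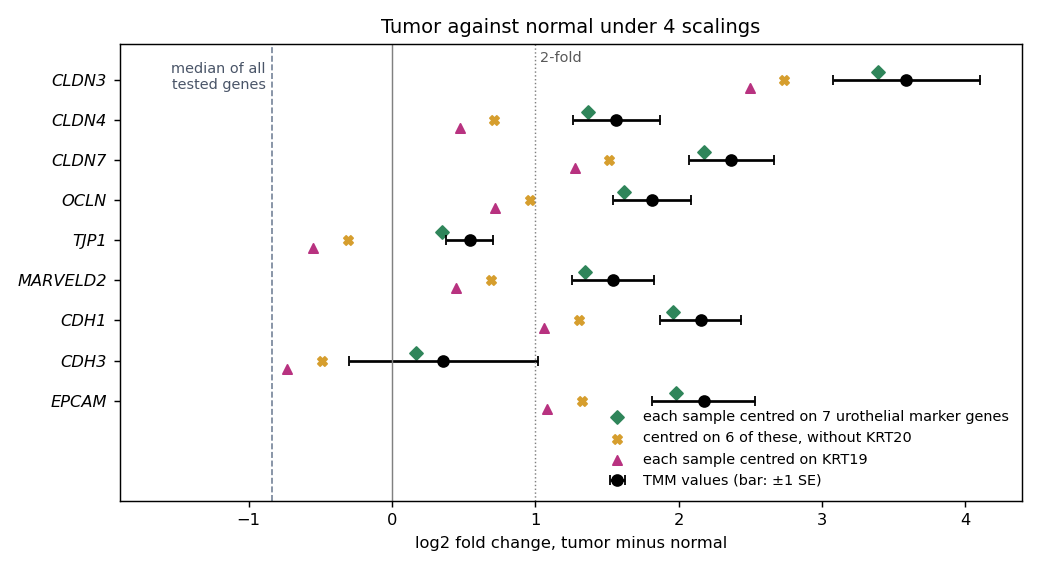
Log2 fold change, tumor minus normal, of the 9 junction genes (horizontal axis) with TMM values (circles, bars of 1 SE), and with each sample centred on 7 urothelial marker genes (diamonds), on the 6 of these other than KRT20 (crosses) or on KRT19 (triangles). The dotted line marks 2-fold and the dashed line the median of all tested genes, -0.84. TJP1 and CDH3 lie above 0 with TMM values and below 0 when centred on KRT19, at -0.55 and -0.73, or on the 6 markers, at -0.31 and -0.49.

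To set the junction genes against another epithelial gene of the same samples, each was compared with KRT19, a keratin of simple and urothelial epithelia and the keratin of that reference analysed here. KRT19 itself was 1.09 ± 0.32 SE higher in tumors on the log2 scale (limma with Benjamini-Hochberg adjusted p = 0.00313), a call lost in the DESeq-normalized table, where it was 0.79. CLDN3 rose by 2.50 more than KRT19, CLDN7 by 1.28 more and CDH1 by 1.06 more (exact permutation adjusted p = 0.0065, 0.00171 and 0.00907). EPCAM exceeded KRT19 by 1.08, which missed the threshold (exact permutation adjusted p = 0.0643), as did OCLN at 0.72, CLDN4 at 0.47 and MARVELD2 at 0.45. TJP1 and CDH3 were lower relative to KRT19 by values of -0.55 and -0.73, which did not pass either.

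When limma was run on samples centred on KRT19, 4 of the 9 genes were called higher (CLDN3, CLDN7, CDH1 and EPCAM). In that scaling the median difference of all genes was -1.93, and calls over all genes went from 2615 higher and 11206 lower to 256 higher and 14832 lower. With each sample centred on the 7 urothelial markers, an alternative added after the data were seen, the same 7 genes as with TMM values were called. That result rested on KRT20, the marker that fell. Centred on the other 6 markers, which include KRT19, the 4 genes named above were called and calls over all genes went to 429 higher and 13862 lower. CLDN4 (0.71), OCLN (0.96) and MARVELD2 (0.69) were then below 2-fold on the log2 scale, with limma and Benjamini-Hochberg adjusted p of 0.044, 0.00241 and 0.0483.

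Of 31 other tight junction genes listed, 16 were analysed, of which 10 were called higher, 3 lower and 3 in neither direction, with a median log2 difference of 1.26 against -0.84 over all genes tested and -0.01 under the stricter filter. Over all genes tested, 10.7% were called higher and 45.8% lower. The higher calls of this list went from 10 to 8 without normal D, and also to 8 in the DESeq-normalized table. In those settings 9.08% and 5.62% of all genes were called higher. PARD6B, a polarity protein of the apical complex, rose by 2.54 ± 0.42 SE, and TJP3, the scaffold ZO-3, by 1.79 ± 0.35 SE (limma with Benjamini-Hochberg adjusted p = 2.00e-06 and 3.88e-05). CLDN18, a claudin of stomach and lung, had a log2 difference of -6.52 and CLDN10, a claudin of ion-conducting epithelia, of -3.77 (limma with Benjamini-Hochberg adjusted p = 6.81e-12 and 3.49e-06). CLDN18 was at its lowest listed value in 17 of the 29 tumors and CLDN10 in 4, so their fold changes are set partly by that value. The claudin family therefore held genes called in both directions, with CLDN12 higher by 1.63 and CLDN9 lower by a log2 difference of -1.11, although CLDN9 was at its lowest listed value in 19 tumors and 1 normal and no tumor lay below every normal.

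Of 20 other adherens junction genes listed, 12 were analysed, of which 6 were called higher, 1 lower and 5 in neither direction (median log2 difference 0.94), beside the same 10.7% and 45.8% of all genes. The higher calls numbered 5 without normal D and 4 in the DESeq-normalized table, beside 9.08% and 5.62% of all genes. CTNNB1, the beta-catenin that binds the cadherin tail, rose by 1.96 ± 0.31 SE, and NECTIN2, an adhesion receptor, by 1.70 ± 0.25 SE (limma with Benjamini-Hochberg adjusted p = 1.13e-06 and 3.59e-07). The called gene that was lower was VCL, encoding vinculin, which is also abundant in smooth muscle, with a log2 difference of -1.88. Centred on KRT19, PARD6B was still called (1.45), and TJP3, CTNNB1 and NECTIN2 were not. Centred on the 6 urothelial markers other than KRT20, PARD6B (1.69) and CTNNB1 (1.11) were called, and TJP3 and NECTIN2 were not.

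Of 10 cadherins and claudins typical of other cells listed, 7 were analysed, of which 5 were called lower, none higher and 2 in neither direction (median log2 difference -1.91), beside 45.8% of all genes tested called lower and 30.1% under the stricter filter. CDH2, the N-cadherin of neural and muscle cells, had a log2 difference of -5.63, and CDH19, a cadherin of Schwann cells, of -7.46 (limma with Benjamini-Hochberg adjusted p = 1.64e-09 and 7.69e-08). CDH2 was at its lowest listed value in 5 tumors and CDH19 in 2, so their fold changes are set partly by that value. The lower call of CLDN19 came with 23 tumors and 1 normal at its lowest listed value and no tumor below every normal. CDH5, the endothelial cadherin, differed by -0.03 and was not called. CDH19 also belongs to the Schwann cell list, whose 4 analysed genes were all called lower, and all 5 smooth muscle genes were called lower with log2 differences from -3.83 to -7.05.

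Among repressors of junction genes, 3 of 6 analysed were called lower in tumors and none higher, a share near that of all genes tested (45.8% called lower). ZEB1 had a log2 difference of -3.08 ± 0.51 SE, ZEB2 of -1.65 ± 0.45 SE and TWIST2 of -3.21 ± 0.78 SE (limma with Benjamini-Hochberg adjusted p = 2.41e-06, 0.00148 and 0.000476). TWIST2 was at its lowest listed value in 10 of the 29 tumors, so its fold change is set partly by that value. These factors are also expressed by fibroblasts and muscle cells, whose markers were lower in tumors too. The part of those cells in the lower values of the factors was not tested. Among activators of epithelial genes, 11 of 15 were called higher (10.7% of all genes tested), 1 lower and 3 in neither direction, led by OVOL1 at 2.48 ± 0.38 SE and ELF3 at 2.27 ± 0.28 SE (limma with Benjamini-Hochberg adjusted p = 7.76e-07 and 1.01e-08). The lower one was PRSS8, a membrane serine protease, listed at its lowest value in all 29 tumors. PRSS8 passed the filter on low values through the 4 normals alone, so its call had to be lower.

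Over the 29 tumors alone, the junction genes showed little shared variation. Of 36 pairs, 28 had a Pearson's r above 0 and 8 below, with a median of 0.11 and a range of -0.49 to 0.70, and the first principal component held 29.3% of the variance of the 9 genes. After Benjamini-Hochberg adjustment of permutation p over the 36 pairs, 3 passed. Pooled over the 9 members, 0.408% of pairs of a member with any other gene reached the smallest passing r, 0.58, and for OCLN, a member of that pair, 99.4% of genes had a lower r.

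**Figure D3:**
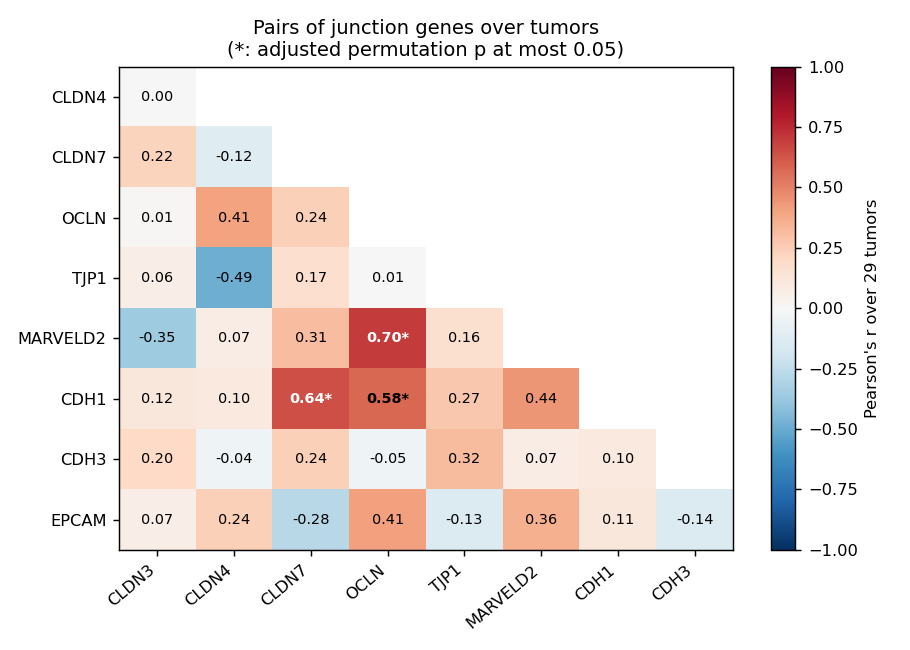
Pearson's r over 29 tumors for each of the 36 pairs of the 9 junction genes, from -1 (blue) to 1 (red), with a star where the adjusted permutation p is at most 0.05. The stars mark OCLN with MARVELD2 (0.70), CLDN7 with CDH1 (0.64) and OCLN with CDH1 (0.58), and the lowest cell is CLDN4 with TJP1 (-0.49).

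The closest pair was OCLN and MARVELD2 (r = 0.70, permutation adjusted p = 0.00144, rho = 0.65, permutation adjusted p = 0.0036), with r = 0.75 when the 2 tumors farthest from the median of OCLN were left out. CLDN7 and CDH1 had r = 0.64 (permutation adjusted p = 0.00468, rho = 0.68, permutation adjusted p = 0.0036) and r = 0.60 without the 2 tumors farthest in CLDN7. OCLN and CDH1 had r = 0.58 (permutation adjusted p = 0.0146, rho = 0.60, permutation adjusted p = 0.0119) and r = 0.62 without the 2 farthest. Without the 3 tumors of highest olfactory receptor detection, the OCLN and CDH1 pair no longer passed (r = 0.54, permutation adjusted p = 0.0572).

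CLDN3, whose rise was the largest, passed with no other member, and neither did CLDN4, TJP1, CDH3 or EPCAM. CLDN3 and CLDN4 had r = 0.00 and rho = 0.07. EPCAM and CLDN7, whose proteins bind each other, had r = -0.28 (permutation adjusted p = 0.435). The lowest r was that of CLDN4 and TJP1 at -0.49 (permutation adjusted p = 0.0638), which became -0.33 without the 2 tumors farthest in CLDN4.

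Low values were spread over different tumors. Tumor 20 was among the 3 lowest for CLDN3, CLDN4 and OCLN and was not among the 3 highest for any member. Tumor 8_734_223 was among the 3 lowest for CLDN7, TJP1 and CDH1 and among the 3 highest for CLDN4. Tumor Za was the lowest for CLDN3 and TJP1 and the highest for CLDN4. Tumor 12 was among the 3 highest for 4 members (CLDN3, CLDN7, MARVELD2 and CDH1), more than any other tumor. Tumor 2 held the lowest EPCAM and the highest CDH3 and TJP1. No tumor was among the 3 lowest for more than 3 of the 9 genes.

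The members were next set against 6 transcription factors of epithelial identity. Of 54 pairs, 4 passed, all negative and all with ZEB1 or ZEB2. CDH1 had r = -0.67 with ZEB1 (rho = -0.62) and r = -0.65 with ZEB2 (rho = -0.60), both at a permutation adjusted p of 0.00351 for r. CLDN7 had r = -0.56 with ZEB1 (rho = -0.62) and r = -0.55 with ZEB2 (rho = -0.57), both at a permutation adjusted p of 0.0229 for r. Without the 2 farthest tumors the 4 values of r lay between -0.55 and -0.60. A negative r at least as large as the weakest of these was reached by 0.461% of genes with ZEB1 and 0.581% with ZEB2.

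CLDN3 had r = 0.01 with ZEB1 and -0.25 with ZEB2, and CDH3 and EPCAM lay between -0.10 and -0.02 with both. OCLN and MARVELD2 had r from -0.30 to -0.37 with both factors and did not pass, and with ZEB1 their r was -0.07 and -0.14 without the 2 farthest tumors. The activators gave no passing pair; the highest r was 0.49, of CLDN7 with ELF3 (permutation adjusted p = 0.0723), and KLF5 had r = 0.45 with CDH1 (permutation adjusted p = 0.13). With GRHL2 the member of highest r was MARVELD2 at 0.38. Without the 3 tumors of highest olfactory receptor detection, 1 of the 4 ZEB pairs still passed, CDH1 with ZEB1 (r = -0.62, permutation adjusted p = 0.0459), and the other r ranged from -0.50 to -0.58.

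**Figure D4:**
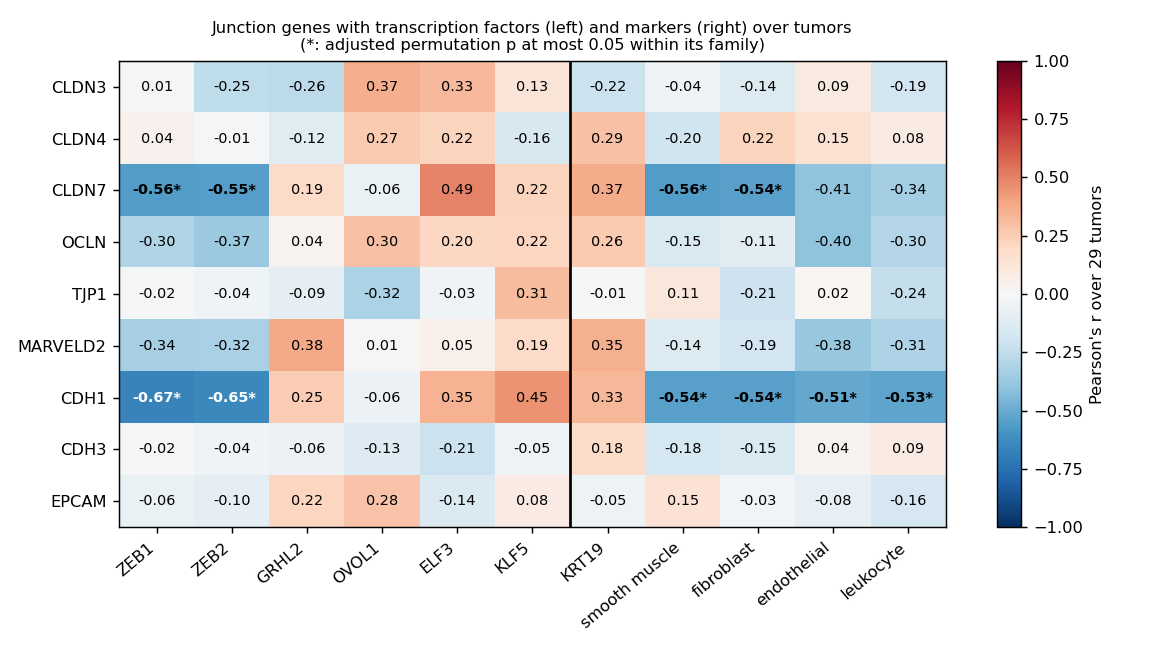
Pearson's r over 29 tumors of the 9 junction genes (rows) with 6 transcription factors (left of the line) and with KRT19 and 4 marker lists, each list scored by averaging z values (right of the line), with a star where the adjusted permutation p is at most 0.05. The stars are in the CLDN7 and CDH1 rows, all at negative values from -0.51 to -0.67.

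CDH1 and CLDN7 were also the members whose r with marker lists of other cells passed. Of 45 pairs with KRT19 and 4 marker lists, 6 passed, all negative. CDH1 had r = -0.54 with the smooth muscle list, -0.54 with the fibroblast list, -0.51 with the endothelial list and -0.53 with the leukocyte list (permutation adjusted p = 0.028, 0.028, 0.0313 and 0.0292). CLDN7 had r = -0.56 with the smooth muscle list and -0.54 with the fibroblast list (permutation adjusted p = 0.028 for both). By Spearman's rho the 4 muscle and fibroblast pairs passed, and those of CDH1 with the endothelial list (rho = -0.46) and the leukocyte list (rho = -0.41) did not. A negative r as large as the weakest of these was reached by 0.424% of all genes with the smooth muscle list, 0.706% with the fibroblast list, 0.997% with the endothelial list and 0.881% with the leukocyte list. Without the 3 tumors of highest olfactory receptor detection none passed, with r from -0.44 to -0.50.

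The other 7 members passed with no marker list, and their r with the muscle and fibroblast lists lay between -0.21 and 0.22. That range rests in part on a few tumors, since with the smooth muscle list OCLN and MARVELD2 had rho of -0.30 and -0.29, and r of -0.36 and -0.37 without the 2 farthest tumors. With the endothelial list OCLN had r = -0.40 and MARVELD2 r = -0.38, against -0.41 for CLDN7, and without the 2 farthest tumors they had -0.18, -0.15 and -0.39. With the leukocyte list OCLN and MARVELD2 had r of -0.30 and -0.31, and none of these passed. With KRT19 the highest was CLDN7 at r = 0.37 and the lowest CLDN3 at -0.22, and no member passed. With KRT19 regressed out of both measures, 3 of the 4 ZEB pairs and all 3 member pairs still passed. The part of stromal cells in the ZEB pairs was not tested.

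Members that lie on the same chromosome were then compared, a choice made after the values were seen. By the gene order of RefSeq assembly UU_Cfam_GSD_1.0, used here for order only, 5 of the 36 pairs share a chromosome, and 2 of these are among the 3 that passed. OCLN and MARVELD2 are adjacent, and CLDN7 and CDH1 have 573 protein-coding genes between them. CLDN3 and CLDN4 are adjacent too, at r = 0.00, and CDH1 and CDH3 have 1 gene between them, at r = 0.10. CLDN7 and CDH3 share the chromosome at r = 0.24. OCLN and CDH1, the remaining pair that passed, lie on different chromosomes.

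The genes whose values over the 29 tumors were most like those of a member are given as a description, with no p. For EPCAM they were FBXO11 (r = 0.78), MSH6 (0.77) and PPP1R21 (0.76), which have 4, 3 and 6 genes between them and EPCAM. For CLDN7, EIF5A (0.80) and TNK1 (0.79) have 2 and 9 genes between them and CLDN7, and LRRC75A (0.81), on the same chromosome, has 117. For CDH1, PRMT7 (0.79) has 4 genes between it and CDH1, and INTS11 (0.78) and PPP2R1B (0.77), on the same chromosome, have 286 and 711. For MARVELD2 (SETD6 0.78, ZMYND11 0.77, ASB13 0.76) and TJP1 (ARAP2 0.70, BOD1L1 0.69, PDS5A 0.69) all 3 genes were on the member's chromosome. In that order, 36, 163 and 182 genes lie between them and MARVELD2, and 275, 219 and 251 between them and TJP1.

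The most like genes of the other 4 members were mostly elsewhere in the genome. For OCLN they were SERF2 (r = 0.80), RAB19 (0.80) and, on the same chromosome with 47 genes between, KIFC3 (0.80). For CLDN3 they were MTCL1 (0.74), TMEM38B (0.70) and NOC4L (0.69), none on its chromosome. For CDH3 they included KCNAB2 (0.74), on the same chromosome with 235 genes between, and DSG3 (0.70), a desmosomal cadherin of basal and squamous cells. For CLDN4 they were WBSCR27 (0.97), FAXDC2 (0.73) and SGPL1 (0.68). WBSCR27 is named for the human region that also holds CLDN3 and CLDN4; it was not matched to the RefSeq table, and whether its reads overlap those of CLDN4 in the build used was not tested, so the CLDN4 values share that uncertainty.

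In all, 17 of the 26 most like genes that could be placed were on the chromosome of their member, where 3.12% to 6.83% of the placed genes lie. Among genes within 10 places on either side, the median r was 0.63 for EPCAM (14 genes), 0.57 for MARVELD2 (17 genes), 0.56 for CLDN7 (12 genes) and 0.43 for CDH1 (15 genes). For OCLN, TJP1 and CDH3 it was 0.23, 0.23 and 0.21. For CLDN4 it was 0.06 and for CLDN3 -0.04, near the medians over genes of other chromosomes, which lay between -0.03 and 0.01 for the 9 members.

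**Figure D5:**
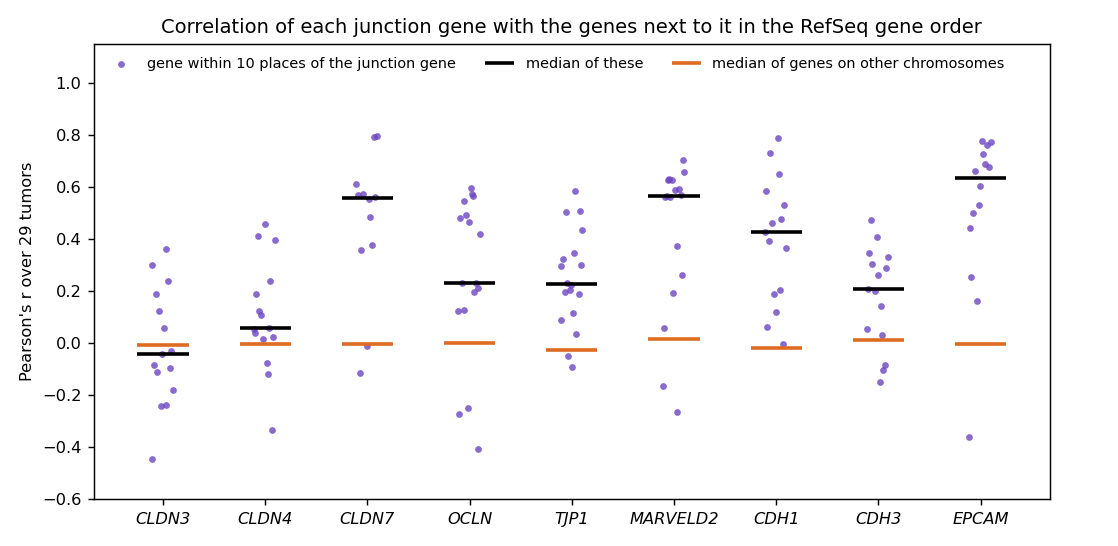
Pearson's r over 29 tumors (vertical axis) of each junction gene with the other genes within 10 places of it in the RefSeq gene order (points), with their median (black line) and the median r with genes of other chromosomes (orange line). The black lines reach 0.63 for EPCAM, 0.57 for MARVELD2 and 0.56 for CLDN7 and lie at -0.04 for CLDN3, whereas the orange lines stay between -0.03 and 0.01.

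Across all 9 members at once, the genes of highest mean r were MBTPS1 (0.37), ARHGEF16 (0.36), BAG1 (0.34), FAM129B (0.34) and KIFC3 (0.33). Those of lowest mean r were DPEP2 (-0.34), EFCAB3 (-0.33), ALOX15 (-0.33), AURKC (-0.31) and TREML1 (-0.31).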

How the data were processed

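RNA from 29 iUC biopsies and 4 normal bladder samples was sequenced in 1 batch (rRNA removed, paired reads of 150 bp). The authors aligned reads to CanFam 3.1 with COBWeb in Strand NGS, normalized gene values by TMM or DESeq, and deposited log2 values minus each gene's median over the 33 samples. These values are not counts, and the depth of each sample is unknown. The tests were planned on log2 values, with a log transform only for a linear table, and used these values as they are. The last line of each analysed copy is incomplete and was dropped; genes not in them were not analysed here.

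Genes above their shared lowest value in at least 4 samples (24471) were tested in the TMM table with limma 3.58.1 in R 4.3.3 (eBayes with trend, Benjamini-Hochberg, adjusted p of 0.05, 2-fold). In simulated data the same fit recovered 186 of 200 changed genes with 10 false calls. Those data had normally distributed noise, no shared lowest values and changes larger than that of any member but CLDN3. Only 200 of 24471 genes were changed, whereas 56.5% were called in the measured values. The simulation therefore checks the code and gives no error rate for the calls here. Differences within samples had exact two-sided permutation tests over 40920 regroupings. Correlations over the 29 tumors had two-sided permutation p from 100000 resamples, of which 1e-05 is the smallest possible, in families of 36, 54 and 45. Python 3.11.15, numpy 2.4.6, pandas 2.3.3 and matplotlib 3.10.9 were used. Each sample is 1 dog; the labels share no replicate number between groups.

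Members and lists were chosen with earlier results of these data known. Named are the 9 members, from each list up to 2 largest rises and 2 largest falls among called genes, the genes of the correlations, the 3 genes most like each member (1 of those of CDH3 is not reported here) and the 5 of highest and lowest mean r; CLDN9, CLDN12, CLDN19 and CDH5 and the comparison by gene order were chosen after values were seen. Alternatives were the deposited table the authors normalized by DESeq, other variance models, filters, thresholds and centrings, each normal left out, Spearman's rho, olfactory share or KRT19 regressed out, and 3 tumors left out. KRT7, KRT8 and KRT18 of the planned keratin reference were not analysed here, so KRT19 stood alone.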

Additional observations from a re-analysis of the deposited data

Results flagged for a closer look

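Of 39 genes whose 4 normals were examined, 6 had 1 normal whose gap to the nearest other normal passed Dixon's critical value for 4 samples, and in all 6 it was normal D; chance flags about 1 in 20 groups. Among the members this was CDH1, at -2.93 in normal D. The others were CTNNB1 at -2.70, NECTIN2 at -2.38, KRT19 at -1.79, UPK3A at -3.20 and ZEB2 at 1.96. Normal D was the lowest normal for 7 of the 9 members, the exceptions being TJP1 and CDH3, where normal A was lowest. It also had the highest means of the smooth muscle (6.75), fibroblast (2.84) and Schwann cell (5.49) lists and the lowest mean of the urothelial list (-1.11) among the normals. Their part in the flags was not tested. Without normal D the same 7 members were called, beside 9.08% of all genes called higher.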

How the results depend on the processing

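With 1 choice changed at a time, 7 of the 9 members were called with the DESeq-normalized table, without the trend, with a weight per group, under both other filters, centred on genes above their lowest value or on the urothelial markers, without the 3 tumors of highest olfactory detection and without any 1 normal, and 8 with no fold threshold. Where 7 were called, the share of all genes called higher ran from 5.62% (DESeq-normalized table) to 14.1% (stricter filter). That share was 22.9% with no fold threshold, 1.05% centred on KRT19 and 1.75% centred on the urothelial markers without KRT20. Centred on KRT19, 4 were called, CLDN4 (0.47), OCLN (0.72) and MARVELD2 (0.45) lost their calls, and TJP1 (-0.55) and CDH3 (-0.73) changed sign; KRT19 itself became 0. Centred on the urothelial markers without KRT20, added after the data were seen, 4 were also called, and TJP1 (-0.31) and CDH3 (-0.49) changed sign. Of the 14 differences, 5 passed, 4 to 5 with 1 normal left out. With the urothelial markers in place of KRT19, also added, 10 of 14 passed, with or without KRT20: 7 against the markers and 3 between members, among them CLDN3 minus CLDN7, whose exact permutation adjusted p went from 0.0562 to 0.0337 with its value unchanged; TJP1 (0.35) and CDH3 (0.17) changed sign against their KRT19 values with KRT20 included. KRT8 with KRT18 as reference was not run, since neither was analysed here. Without the 3 tumors of highest olfactory detection, pairs that passed went from 3 to 2 among members, from 4 to 1 with transcription factors and from 6 to 0 with marker lists; r kept its sign in all 13, and fewer tumors were tested. With KRT19 or the olfactory share regressed out, 4 member pairs passed. The calls of KRT19 and UPK3B ended without normal D (0.79 and 0.87) and in the DESeq-normalized table (0.79 and 0.86). No paired analysis was possible because the groups share no replicate numbers. With 4 normals and values without counts, the precision of a single value is not known.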
